A study of Monodelphis domestica with 25 samples.

Results

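The transcripts described here were on average higher after 12 h of culture than in fresh opossum blood, and lower again by 72 h. They were chosen from an untreated time course by the mean of the 3 libraries at each time, with 0.1 added. Levels are in CPM, which divides each count by the library's total, here adjusted by TMM, an edgeR scaling that limits the weight of a few dominant transcripts. A transcript was kept when its 12 h mean was at least 4 times the 0 h mean and at least 10 CPM, and its 72 h mean was at least 4-fold below the 12 h mean. These limits selected 30 of 22049 transcripts. They form part of 136 transcripts that met the rise and level limits, and the other 106 did not meet the limit on the 72 h level. Another 4 identifiers were set aside in advance, and 0 of these met the limits. The levels at 0, 12 and 72 h therefore chose the members and are given as a description, without a test.

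Blood came from LSD-strain Monodelphis domestica, the gray short-tailed opossum, a laboratory marsupial. In the time course, untreated blood was sequenced at 0, 12, 24, 48 and 72 h, with 3 libraries per time that carry the identifiers A0036, A0039 and A3538. The design text gives 14 such libraries, while the sample labels and the table hold 15, all used here. The labels name RPMI medium and 2 dilutions for this blood without saying which library had which. A second, treatment experiment was labelled A9394 throughout, with numbers R1 to R4, and gave 10 libraries. They were untreated controls (2 at 12 h and 2 at 24 h), perfluorooctanoic acid (PFOA) at 400 and 800 µM (1 library of each at 12 h and 1 at 24 h) and GenX at 1200 µM (2 at 12 h). The titles give doses as low or high, taken here as the smaller or larger concentration of the protocol. The protocol puts 0.1% DMSO, a solvent, into treated and control groups alike, although the controls are labelled untreated. Neither identifiers nor numbers are stated to be separate animals, cultures or wells, so the p-values reflect library-to-library spread that may be technical.

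Whole blood holds red cells, neutrophils, monocytes, lymphocytes and platelets, and its leukocytes respond to being drawn, diluted and kept on plastic. In cultured mammalian leukocytes, transcription factors of the immediate early class and many cytokine and chemokine transcripts are known for rises that end within hours to days. PFOA is a persistent fluorinated surfactant, and GenX was brought in as a substitute for it in fluoropolymer production. The files name these 30 transcripts by Ensembl identifier only, and 0 of the identifiers matched the gene table used here. No gene name, pathway or cell type marker can therefore be attached to a member, and most members are given by their rank at 12 h, where rank 1 is the highest. In such bulk samples, fewer cells of a type and less RNA per cell cannot be told apart.

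Library totals were 51349217 to 336472834 counts in the time course and 366269 to 11685427 in the treatment experiment. The level equal to 3 counts, used as a floor, was 0.0170 to 0.0670 CPM for time course libraries. For treatment libraries it was 0.254 to 8.49 CPM, and such floors cover counting error only. The 4 PFOA libraries were the smallest group, at 366269 to 4027470 counts.

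The 30 members together made up 0.0504% ± 0.0340 (SD, n = 3) of all counts in fresh blood and 0.915% ± 0.311 at 12 h. Their share was 0.507% ± 0.0315 at 24 h, 0.308% ± 0.222 at 48 h and 0.172% ± 0.0736 at 72 h. Member means at 12 h ran from 9.94 to 3457 CPM with a median of 77.2 CPM, and 14 of the 30 were above 100 CPM. At 0 h the median was 2.45 CPM, 11 members were under 1 CPM and 2 had no count in any library. The ratio of the 12 h to the 0 h mean was 4.15 to 1076, with a median of 26.5. The ratio of the 12 h to the 72 h mean was 4.20 to 71.8, with a median of 7.56.

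Values just inside and just outside each limit were close. The member nearest to the rise limit had a ratio of 4.15, and the nearest transcript that missed only this limit had 3.90. For the fall to 72 h these values were 4.20 and 3.94, and for the 12 h mean with 0.1 added they were 10.04 and 8.25 CPM.

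The most abundant member at 12 h, ENSMODT00000024336, was at 6.68 CPM in A0036, 0.166 CPM in A0039 and 12.2 CPM in A3538 at 0 h. At 12 h these libraries were at 4659, 3052 and 2660 CPM, and at 24 h at 2402, 1787 and 1798 CPM. At 48 h they were at 1147, 138 and 1983 CPM, and at 72 h at 590, 107 and 818 CPM. All 3 identifiers were thus high at 12 h, while A0039 was far lower than the other two from 48 h on. Even at 72 h every library of this transcript was above every fresh library.

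The second, ENSMODT00000024364, behaved differently in each identifier. In A3538 it went from 99.2 CPM at 0 h through 3431, 1542 and 389 CPM to 493 CPM at 72 h. In A0036 it went from 271 CPM through 1663, 101 and 16.3 CPM to 77.3 CPM. In A0039 it was lower at 12 h than in fresh blood, going from 392 CPM through 210, 37.0 and 15.7 CPM to 484 CPM. It was the only member with a 12 h level under the 0 h level in any identifier, so its mean profile rests on A0036 and A3538.

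**Figure D1:**
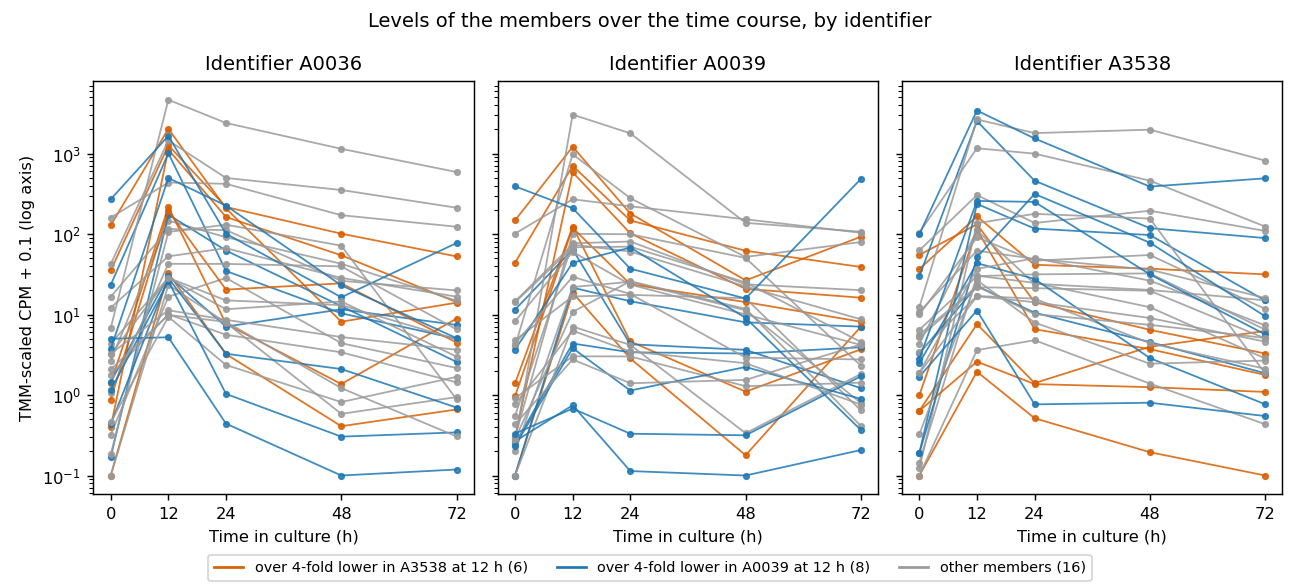
Levels of the 30 members in each library of the time course, with time in culture on the x axis, TMM-scaled CPM plus 0.1 on a log y axis and 1 panel per identifier. Each line is 1 member, and colours mark 6 members whose 12 h level in A3538 was over 4-fold below both other identifiers, 8 for which this held in A0039, and the other 16. A reader should see the peak at 12 h in most lines and the different height of the coloured lines between panels.

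The 24 and 48 h levels did not enter the choice, and they divided the members by how fast they declined. The 24 h mean was at least 4-fold below the 12 h mean in 8 members, a further 7 reached that point at 48 h, and the other 15 only at 72 h. At 24 h, 15 members were still within 2-fold of their 12 h mean, and 4 were above it. The median ratio of the 12 to the 24 h mean was 1.79 over the members and 0.862 over the 106 other early-rising transcripts. Since the members were chosen for a 72 h level at least 4-fold below the 12 h level, this difference is in part built into the choice. By 72 h, 13 members were within 2-fold of their 0 h mean, 13 were still over 4 times it and 10 were below it. In 7 members the mean was higher at 72 than at 48 h.

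Identifiers differed more for these members than for most transcripts. At 12 h, the highest of the 3 libraries was 6.67 times the lowest in the median member, with a range of 1.35 to 74.2. The median was 2.22 for the other early-rising transcripts and 1.29 for all 7693 transcripts that averaged 10 CPM or more at 12 h. The same 12 h libraries chose the members through their mean, which a single high library can raise. This difference is therefore a description and may in part be built into the choice. Taken within each identifier, both 4-fold steps (0 to 12 h and 12 to 72 h) were present in 26 members in A0036, 22 in A3538 and 18 in A0039. They were present in all 3 identifiers in 10 members, in 2 identifiers in 16 and in 1 identifier in 4. A0036 was the highest 12 h library for 16 members, A3538 for 11 and A0039 for 3, and A0039 was the lowest for 17.

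A set of 6 members was more than 4-fold lower in A3538 than in both other identifiers at 12 h. The most abundant of these, ENSMODT00000000873, was at 128, 148 and 54.9 CPM at 0 h in A0036, A0039 and A3538 and at 2032, 1217 and 132 CPM at 12 h. At 24 h it was at 208, 180 and 14.1 CPM, and at 48 h at 8.05, 26.5 and 6.36 CPM. The contrast was larger in the member of rank 14, which was at 193 and 119 CPM in A0036 and A0039 and at 2.50 CPM in A3538 at 12 h. All 6 were again lowest in A3538 at 24 h, and 4 of 6 at 48 h. This count was not taken over other transcripts, so it is a description. These 6 also had 24 h means at least 4-fold below their 12 h means, against 2 of the 24 other members. The decline was present within each identifier: the median ratio of the 12 to the 24 h level over the 6 was 9.60 in A0036, 6.15 in A0039 and 4.70 in A3538. In the other 24 it was 2.07, 1.55 and 1.37. The set was picked on its 12 h levels, which also enter these ratios, so they are a description.

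A further 8 members were more than 4-fold lower in A0039 than in both others at 12 h. They include ENSMODT00000024364, and the member of rank 3, which was at 1009.5, 64.2 and 2533 CPM in A0036, A0039 and A3538. All 8 were again lowest in A0039 at 24 h, and 5 of 8 at 48 h, a count also not taken over other transcripts. In 9 of the 30 members, by contrast, the highest 12 h library was at most 3 times the lowest. The closest agreement was in ENSMODT00000012011, at 106, 101 and 136 CPM. The 2 dilutions of the time course blood cannot be told apart from the identifiers here, because the labels do not tie them to libraries.

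The test of 48 against 24 h asked whether the members kept declining in libraries that had not been used to choose them. These libraries carry the same identifiers as those used for the choice. The choice also required a fall over a span that contains this step. A lower level at 48 h, here and in the shares that follow, is therefore in part built into the choice. No member passed the test in the main fit, which did not pair libraries by identifier. The mean of each of the 30 members was lower at 48 than at 24 h. Their log2 fold changes were likewise all below 0, against 49.99% of those of all transcripts tested. ENSMODT00000021110 had the smallest p. It was at 66.8, 60.5 and 49.0 CPM at 24 h in A0036, A0039 and A3538 and at 28.4, 22.3 and 36.04 CPM at 48 h. Its groups did not overlap, and its log2 fold change was -1.05 (SE 0.26, adjusted p = 0.0782, edgeR quasi-likelihood, Benjamini-Hochberg).

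Over all 15524 transcripts tested, 0.0515% were called in this comparison, and 0 of the 30 members were. DESeq2 called 5 of the 30 members and 5.67% of all transcripts. An unadjusted p under 0.05 in edgeR with a lower level at 48 h was found for 7 members and for 7.18% of all transcripts, and no member had one with a higher level. The median log2 fold change was -1.14 over the members and 0.00 over all transcripts tested. The 2 times did not overlap, with 48 h lower, in 5 of the 30 members, where 12.5% of all transcripts tested had this pattern. The 48 h level was below the 24 h level within each of the 3 identifiers in 20 members, against 24.6% of all transcripts tested. The 95% interval of the change reached a median of 1.84 log2 units to either side.

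Libraries with the same identifier deviated together, and with the identifier as a replicate block 1 member was called, where 2.96% of all transcripts were. ENSMODT00000030155, named because it was the only one, was at 226, 68.0 and 251 CPM at 24 h in A0036, A0039 and A3538. At 48 h it was at 23.0, 8.99 and 31.5 CPM, below its own 24 h level in each identifier. Its log2 fold change was -3.08 with the block (SE 0.67, adjusted p = 0.0334, edgeR) and -3.12 without it (SE 0.95, adjusted p = 0.131, edgeR). The median change of the members was -0.68 without the 24 h library of A3538 and -1.73 without its 48 h library.

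**Figure D2:**
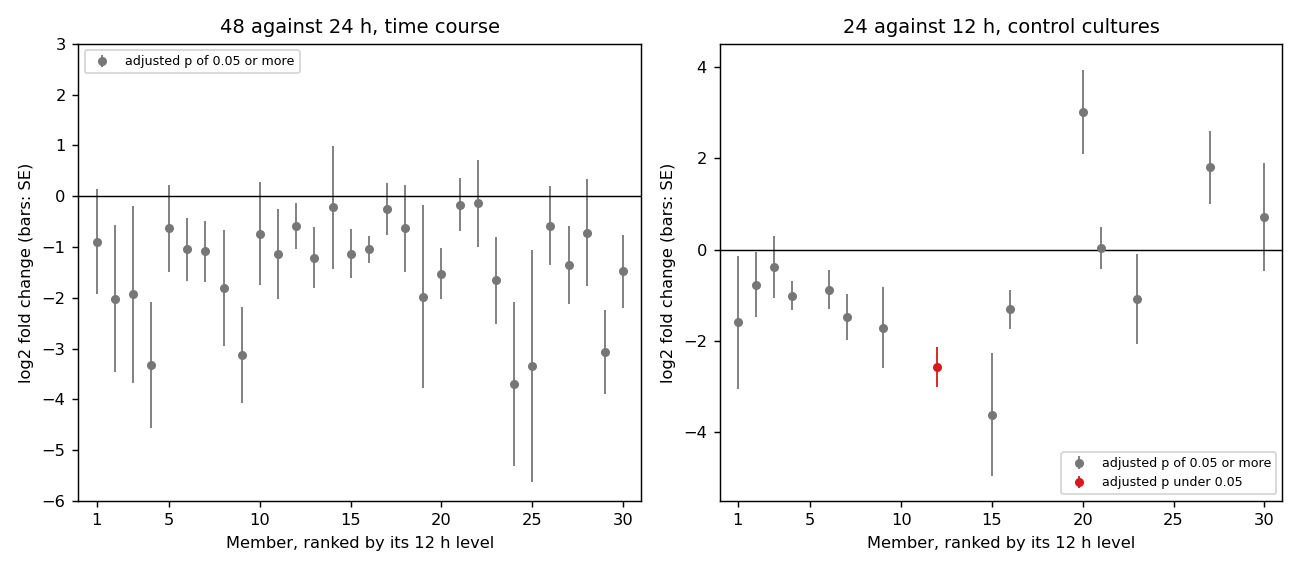
The log2 fold change of each member tested, with SE bars, in 48 against 24 h of the time course (left, 30 members) and in 24 against 12 h of the control cultures (right, 15 members), with the rank at 12 h on the x axis. On the left, from the fit without the identifier as a block, all points lie below 0 and none passed the test. That direction is in part built into the choice of the members. On the right 11 of 15 lie below 0 and the red point, ENSMODT00000012011 at -2.56, passed. Among all transcripts tested, a change below 0 was found for 49.99% in the left comparison and 47.07% in the right.

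Most members were at low levels in the treatment experiment, including its untreated controls. In the 12 h controls, 22 of 30 members had a mean under 10 CPM, and 15 were under 1 CPM. ENSMODT00000024336, at 2660 to 4659 CPM in the 12 h libraries of the time course, was at 2.90 and 3.14 CPM in the 12 h controls, from 24 and 37 counts. Its 24 h controls held 0 and 10 counts. For 24 members, both 12 h controls were below all 3 time course libraries of that time. With 0.1 CPM added, the control level was under 10% of the time course level in 21 members (70.0%), with a median of 2.68%.

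The same comparison gave a median of 8.81% in the 106 other early-rising transcripts, of which 52.8% were under 10%. In the 7663 other transcripts of at least 10 CPM at 12 h, the median was 149% and 2.05% were under 10%. On a log scale, the 12 h control level lay nearer to the fresh-blood level of the time course than to its 12 h level in 26 of 30 members, and at or below fresh blood in 18. The experiments were scaled separately, so these levels are set side by side without a test, and the members were chosen for high levels in one of them. Identifier, solvent and depth differed between the experiments, dilution may have, and their parts cannot be told apart. The times were taken as labelled, and whether 12 h marks the same state of culture in both experiments was not tested. In the 12 h controls, 3 counts equalled 0.362 and 0.254 CPM.

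A pair of members went the other way. ENSMODT00000012011 was at 0.0834, 0.199 and 0.0223 CPM in fresh blood of A0036, A0039 and A3538 and at 101 to 136 CPM at 12 h. It stayed at 99.4 to 178 CPM at 24 h and 50.4 to 156 CPM at 48 h, and was at 0.786 to 2.22 CPM at 72 h. In the 12 h controls it was at 1223 and 910 CPM. ENSMODT00000021110 was at 52.8 to 73.9 CPM at 12 h in the time course and at 245 and 291 CPM in the 12 h controls.

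**Figure D3:**
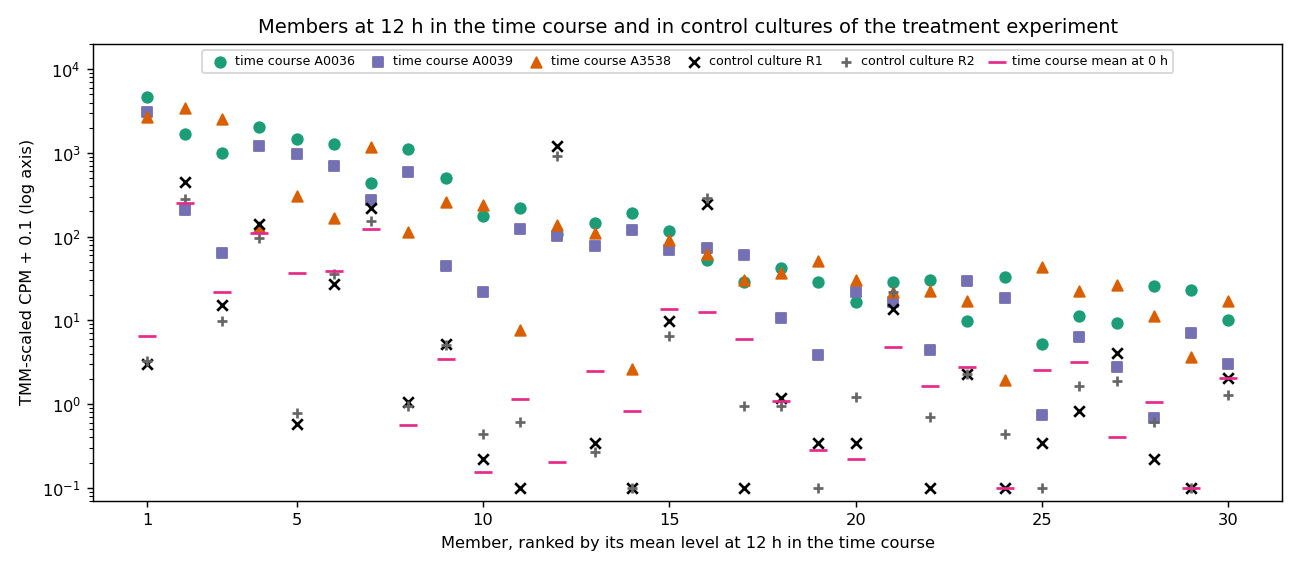
Level of each member at 12 h, ranked by its time course mean on the x axis, with TMM-scaled CPM plus 0.1 on a log y axis. Filled symbols are the 3 time course libraries, crosses the 2 control cultures of the treatment experiment, and pink bars the time course mean at 0 h. A reader should see the crosses near the pink bars for most members and above the filled symbols at ranks 12 and 16.

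The control cultures gave a view of the step from 12 to 24 h in libraries that played no part in choosing the members. The treatment experiment had no fresh-blood library, so whether a rise came before this step could not be tested there. Of the 30 members, 15 were abundant enough to be tested in the treatment experiment, and the other 15 held 3 to 52 counts over all 10 libraries. From 12 to 24 h, ENSMODT00000012011 fell from 1223 and 910 CPM to 218 and 126 CPM, with R1 and R2 at 12 h and R2 and R3 at 24 h. The log2 fold change was -2.56 (SE 0.43, adjusted p = 0.0123, edgeR quasi-likelihood, Benjamini-Hochberg). In the time course its mean was 114 CPM ± 19.1 (SD, n = 3) at 12 h and 136 CPM ± 39.8 at 24 h, and the difference between the experiments in this step was not tested. The call ended when any of the 4 control libraries was left out (adjusted p = 0.0755 to 0.351).

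It was the only one of the 15 called, and 1.24% of all 12565 transcripts tested were. The median log2 fold change was -1.01 over the members tested and 0.05 over all transcripts. Both 24 h controls were below both 12 h controls in 10 of the 15, where 32.5% of all transcripts tested had this pattern. ENSMODT00000021110 was among them, at 245 and 291 CPM at 12 h and 116 and 90.8 CPM at 24 h, with a log2 fold change of -1.31 (SE 0.43, adjusted p = 0.156, edgeR). ENSMODT00000010797 lay in the opposite direction, at 0.242 and 1.10 CPM at 12 h and 7.32 and 3.86 CPM at 24 h, with a log2 fold change of 3.01 (SE 0.92, adjusted p = 0.134, edgeR). These last values rest on 2, 13, 35 and 21 counts.

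The mean was lower in the 24 than in the 12 h controls for 17 of the 30 members, and for 45.1% of all transcripts with a count in any control. In the 12 h controls 8 members averaged 10 CPM or more, and all 8 had a lower mean at 24 h, where 59.9% of all transcripts past that level did. That level is one side of the comparison, so the count is a description. The smallest difference was in the member of rank 21, at 17.6 CPM at 12 h and 17.4 CPM at 24 h. ENSMODT00000000873 was at 141 and 95.9 CPM at 12 h and 63.1 and 49.1 CPM at 24 h. The member of rank 7 was at 219 and 152 CPM at 12 h and 54.6 and 72.1 CPM at 24 h. The total share of the members was 0.202% ± 0.0251 (SD, n = 2) of counts in the 12 h controls and 0.0701% ± 0.0123 in the 24 h controls. Much of it was ENSMODT00000012011, with 10125 of 19533 member counts in R1 and 10730 of 21487 in R2 at 12 h. At 24 h it held 1043 of 3537 in R2 and 686 of 3256 in R3.

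PFOA and control cultures were compared to ask whether the compound changes the level of these transcripts. No member passed the test, and the values lay on both sides of the controls. ENSMODT00000010797 had the smallest p, with a log2 fold change of 2.24 (SE 0.66, adjusted p = 0.157, edgeR quasi-likelihood, Benjamini-Hochberg). It was at 3.94 CPM at 400 µM and 4.96 CPM at 800 µM at 12 h, against 0.242 and 1.10 CPM in the 12 h controls. At 24 h it was at 15.9 and 19.8 CPM, against 7.32 and 3.86 CPM. Within each time both PFOA libraries were above both controls, on 7 to 16 counts per PFOA library. Both PFOA libraries carried number R2 at 12 h, with controls R1 and R2. At 24 h both carried R1, with controls R2 and R3, so compound and number cannot be told apart at 24 h for any member.

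ENSMODT00000000873 was lower with PFOA within each time, at 58.6 and 43.4 CPM at 12 h and 36.7 and 39.6 CPM at 24 h, with a log2 fold change of -0.83 (SE 0.26, adjusted p = 0.176, edgeR). ENSMODT00000024336 had no count in any PFOA library (adjusted p = 0.220, edgeR). At 12 h the floors of the PFOA libraries, 0.738 and 1.24 CPM, lay below the controls at 2.90 and 3.14 CPM. At 24 h the floors, 3.67 and 8.49 CPM, lay above the controls at 0 and 1.84 CPM, and no difference was detectable at this depth. Of all transcripts tested, 0.0796% were called, and 0 of the 15 members were. DESeq2 called 1 of the 14 members to which it gave an adjusted p, and 5.96% of all transcripts. An unadjusted p under 0.05 in edgeR was found for 6 of the 15, 3 of them lower, and for 15.7% of all transcripts. No member had all 4 PFOA libraries below all 4 controls, a pattern of 6.72% of all transcripts, or above them, a pattern of 1.5%. The median log2 fold change was 0.02 over the members and -0.04 over all transcripts. The 95% interval lay within 4-fold of no change in 8 of the 15 members and within 2-fold in 1, so these data do not show that the members were unaffected.

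GenX at 1200 µM was compared with the same 4 controls. ENSMODT00000000873 had the smallest p and was at 40.8 and 55.8 CPM with GenX, below the 12 h controls at 141 and 95.9 CPM. Its log2 fold change was -1.05 (SE 0.32, adjusted p = 0.533, edgeR quasi-likelihood, Benjamini-Hochberg). Of all transcripts tested 0.00796% were called, and 0 of the 15 members were. DESeq2 called 0 members and 0.501% of all transcripts. An unadjusted p under 0.05 in edgeR was found for 4 members, 1 lower and 3 higher with GenX, and for 6.82% of all transcripts. Both GenX libraries were above all 4 controls in 4 members, among them ENSMODT00000024364, where 7.72% of all transcripts had this pattern. They were below all 4 controls, which include those at 24 h, in 0 members. The share of all transcripts with that pattern was not counted. The median log2 fold change was 0.02 over the members and -0.03 over all transcripts. The interval lay within 4-fold in 6 of 15 members and within 2-fold in 0. Numbers R3 and R4 belonged to GenX at 12 h and R1 and R2 to its controls, so compound and number cannot be told apart at that time.

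The compounds share their controls and were given at different concentrations, so their values stand side by side. ENSMODT00000012011 was at 943.5 and 463 CPM with PFOA at 400 and 800 µM at 12 h and at 951 and 841 CPM with GenX. ENSMODT00000024364 was at 444 and 655 CPM with PFOA at 12 h, at 532 and 1210 CPM with GenX and at 446 and 278 CPM in the controls. The share of counts held by all members at 12 h was 0.188% ± 0.0200 (SD, n = 2) with PFOA and 0.239% ± 0.0411 with GenX.

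Within PFOA, the higher dose was compared with the lower. ENSMODT00000024364 had 655 CPM at 12 h and 1423 CPM at 24 h under 800 µM. Under 400 µM it had 444 and 166 CPM, so the doses did not overlap. Its log2 fold change was 2.08 (SE 0.56, adjusted p = 0.382, edgeR quasi-likelihood, Benjamini-Hochberg). The total counts moved with dose within each time, from 4027470 to 2412085 at 12 h and from 754708 to 366269 at 24 h, and their part in the result was not tested. Of all transcripts tested 0.0159% were called and 0 of the 15 members were, while DESeq2 called 1 of the 8 to which it gave an adjusted p and 1.12% of all transcripts. An unadjusted p under 0.05 in edgeR was found for 4 members, 2 of them lower, and for 7.12% of all transcripts. The value of ENSMODT00000024364 rested on single libraries. Without the 24 h library at 800 µM its log2 fold change was 0.80 (adjusted p = 1, edgeR), and without the 12 h library at 800 µM it was 3.00 (adjusted p = 0.00166, edgeR). In the latter fit 3 of 17 members were called, where 13.6% of all transcripts were. ENSMODT00000012011 lay in the other direction, with 463 and 50.9 CPM under 800 µM, against 943.5 and 115 CPM under 400 µM (log2 fold change -0.94, SE 0.37, adjusted p = 0.598, edgeR).

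**Figure D4:**
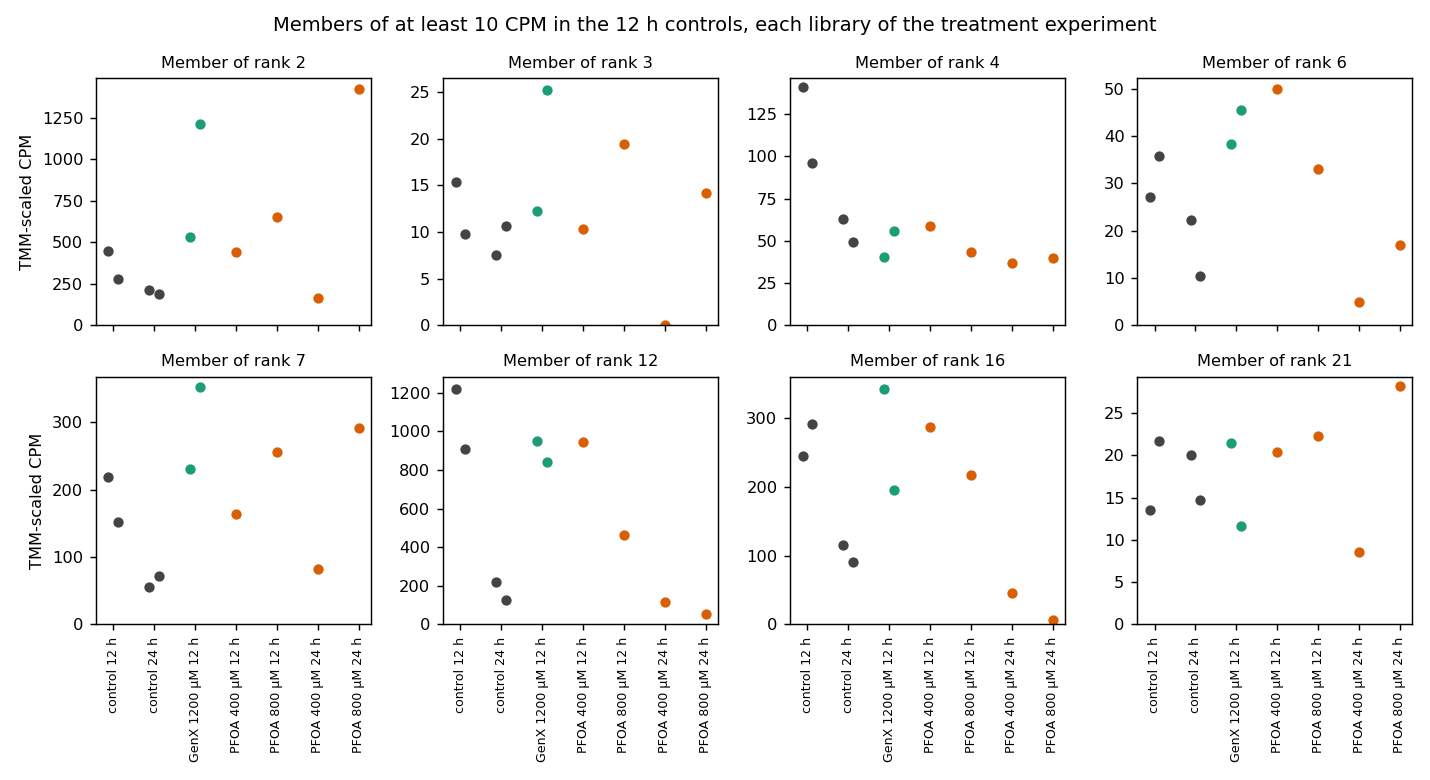
TMM-scaled CPM of the 8 members that averaged 10 CPM or more in the 12 h controls, 1 panel each, titled by rank at 12 h in the time course. Each point is 1 library of the treatment experiment, with controls in grey, GenX in green and PFOA in orange, and the y axes start at 0 and differ between panels. A reader should see the lower 24 h controls in most panels and the different order of the PFOA libraries at ranks 2 and 12.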

How the data were processed

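Poly(A) libraries were strand-specific per the labels' protocols, and for both experiments the authors deposited raw counts by transcript, whole numbers without scaling. The submitters' processing notes list R 4.1.2, edgeR, bedtools 2.30.0, Bowtie2, TopHat2 2.1.1, Trimmomatic 0.36 and FastQC 11.5. The genome, annotation and strand setting remain not given in the sources used. Overlapping, antisense or near-identical transcripts are therefore uncertain. The tables hold 22063 features, 14 of them without an Ensembl transcript identifier, and 4 of those 14 duplicate another and were left out of tests. Even values made up 71.0% and 70.9% of counts from 1 to 12 in the time course and the treatment experiment, so single counts are not independent, and counting floors are too low.

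Levels are TMM-scaled CPM over all features. Tests used edgeR's quasi-likelihood method, glmQLFTest (version 4.0.16 with limma 3.58.1 under R 4.3.3), after TMM and filterByExpr at a minimum count of 10. P-values were adjusted by Benjamini-Hochberg over every transcript tested, and a call needs an adjusted p under 0.05. The time course model had time as a factor over 15 libraries. Models of the 10 treatment libraries had cell means of treatment and time for the controls, treatment plus time for the compounds, and a dose term within PFOA for dose. DESeq2 1.42.0, other scalings, no filter, left-out libraries and a replicate block were tried as alternatives. Deviations of 24 and 48 h libraries with the same identifier correlated across transcripts (r = 0.494, 0.514 and 0.552), so these libraries are paired. The main fit of 48 against 24 h left this pairing out, and the fit with the identifier as a replicate block stands beside it. Numbers R1 to R4 were not taken as pairs.

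Members and lists were chosen with earlier results of these data known. Named transcripts are the 2 with the highest 12 h mean and, for each test, up to 2 called members per direction by fold change with at least 5 CPM in the higher group, or else the member with the smallest p. ENSMODT00000030155, members given by rank, and values of a named member in other comparisons were added after their values were seen.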

Additional observations from a re-analysis of the deposited data

How the results depend on the processing

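The number of members was 29 with RLE size factors and 20 without TMM factors, where only 17 of the 30 remained. It was 12 with 8-fold and 113 with 2-fold limits. It was 29 to 32 when the means were taken without 1 identifier, and 18 of the 30 were selected in all 3 of those cases. For 48 against 24 h, 5 members were called by DESeq2, 1 with the identifier as a replicate block, and 0 to 1 without single libraries (1 without the 48 h library of A3538). The median change of the members ranged from -1.73 to -0.68 over the left-out libraries. For 24 against 12 h in controls, 1 of 15 members tested was called. The count was 3 of 15 by DESeq2 (2 lower at 24 h) and 5 of 30 with no filter (4 lower). It was 6 of 9 in the control libraries alone (5 lower), where 1740 of all transcripts were called. It was 5 of 15 with the additive time term (3 lower), where 1257 were. It was 0 without any single control library and 0 under a replicate block on R1 to R4, where the median change was -0.62 in place of -1.01 and ENSMODT00000012011 had a log2 fold change of -2.003 (adjusted p = 1, edgeR). For PFOA, 1 member was called by DESeq2 and 2 with no filter. For GenX, 1 was called with no filter. For dose, 1 was called by DESeq2, 1 with no filter and 0 to 3 without single PFOA libraries, over which the median change ranged from -0.15 to 0.81. The replicate block changed no other count of called members. Calls over all transcripts moved too. For 48 against 24 h they were 8, with 877 by DESeq2, 40 with no filter, 459 with the block, 0 in the 24 and 48 h libraries alone and 0 to 316 without single libraries. For the controls they were 156, with 742 by DESeq2, 793 with no filter, 0 with the block, 1740 in controls alone, 1257 with the additive term and 0 to 37 without single libraries. For PFOA they were 10, with 734 by DESeq2, 640 with no filter, 4 with RLE, 1 with the block, 0 in the 24 h libraries alone and 1 to 92 without single libraries. For GenX they were 1, with 63, 196 and 0 by DESeq2, no filter and the block, 2 in the 12 h libraries alone and 0 to 69 without single libraries. For dose they were 2, with 92, 159 and 0 in that order, and 0 to 1707 without single libraries. The cause of these shifts was not tested. No share of all transcripts is given with no filter, nor for the controls by DESeq2, in controls alone or with the additive term. The counts of members called there are a description. Where a library was left out of a pair, the lone sample was assumed to vary like the other groups. In the treatment experiment 15 members did not pass the filter on low counts and have no test.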
